A study of Drosophila sechellia x Drosophila simulans with 8 samples.

Results

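Of 14176 genes measured in abdominal oenocytes and fat body of hybrid flies, 8 had more RNA in males than in females in both tissues. They were chosen from the deposited gene table of TPM (a transcript abundance scaled for transcript length to a fixed sum per library). The mean TPM of the 2 libraries of each group was taken and 1 was added. A member had a male over female ratio of at least 2.5 in oenocytes and at least 3 in fat body. Desat2, a fatty acyl desaturase of cuticular hydrocarbon synthesis, also passed both thresholds, as the ninth gene, but was left out by the rule with other named genes. The 8 members are GD24689, GD25622, GD22237, GD16941, GD28014, GD13387, GD18107 and GD15886. The files pair none of these numbers with a gene name or a function, so no role is given for any of them.

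The flies were F1 hybrids of Drosophila sechellia and Drosophila simulans aged 10 days, and all 4 groups shared this background. The groups were female oenocytes, male oenocytes, female fat body and male fat body, with 2 libraries each, made from tissue dissected from the dorsal abdomen. Rearing was under a light and dark cycle, with dissections spread evenly over the day, and the labels name no transgene or agent. Nothing in the labels says whether replicates came from separate animals or which species was the mother, so the p-values below measure only the spread between these samples, which may be technical.

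Oenocytes lie under the abdominal cuticle and synthesise its hydrocarbons, and the fat body is the neighbouring tissue that stores fat and secretes proteins into the hemolymph. In Drosophila, Sex-lethal (Sxl) is active in females and directs the splicing of transformer, whose product directs the splicing of doublesex. The male and female forms of the Doublesex protein then set sex-specific transcription in somatic tissues, the female yolk proteins of the fat body being the textbook case.

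Of 16 listed genes of sex determination and sex-specific fat body expression 6 were in the table. Yp2, a yolk protein, stood at 36351 and 37413 TPM in female oenocytes and at 88267 and 87132 TPM in female fat body, against 56.3 and 67.2 TPM in male oenocytes and 54.6 and 84.7 TPM in male fat body. Sxl stood at 16.4 to 35.5 TPM in the female libraries and at 5.32 to 8.85 TPM in the male libraries. Male and female libraries did not overlap in either gene. The male over female ratios of tra were 0.70 in oenocytes and 0.68 in fat body, and fru was at most 0.49 TPM in any library. Of the odorant-binding protein genes on the list, Obp99a was lower in males, with ratios of 0.027 and 0.050, and Obp99b was higher, with 1.67 and 12.8. The tissue labels could be checked less well, because only Desat1 and DesatF of 9 listed oenocyte markers and 5 of 20 listed fat body markers were matched. Of the fat body markers matched, Lsp1gamma and Fbp2 were at 0.25 TPM or less in every library, fat body included. DesatF, a female-biased desaturase of oenocytes, was at 2725 and 2544 TPM in female oenocytes and at 30.4 and 25.7 TPM in female fat body. Desat1, a desaturase gene, lay lower in oenocytes, at 6648 and 6242 TPM in females and 5220 and 5214 TPM in males, than in fat body, at 9292 and 8822 TPM in females and 12443 and 11117 TPM in males. Yp2 was thus abundant in the female oenocyte libraries too, and the part of fat body RNA in any oenocyte value below was not tested. In such bulk samples, fewer cells of a type and less RNA per cell cannot be told apart.

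The 2 male oenocyte libraries were close in estimated counts but not in aligned reads. Over single-transcript genes, chi-square per degree of freedom between their estimated counts was 1.08, close to sampling noise, against 2.94 to 5.55 in the other groups. For aligned reads per gene it was 7.69, against 10.5 to 13.5 elsewhere, and some members differed within the pair, as GD22237 at 30.3 and 14.5 and GD28014 at 4.39 and 23.2 aligned CPM (reads scaled to a fixed library total). They were summed and counted as 1 sample in all tests, so that group adds no spread of its own. Aligned reads in genes ran from 2275755 to 4642417 per library, of which 563434 to 1155753 were assigned to an allele.

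The levels of 4 members separated most widely between the sexes in fat body. GD24689, on the X, was at 1.49 and 1.04 TPM in female oenocytes, 11.9 and 14.2 TPM in male oenocytes, 3.83 and 3.79 TPM in female fat body and 160 and 151 TPM in male fat body. Its ratio of TPM + 1, male over female, was 6.22 in oenocytes, the highest of the 8, and 32.6 in fat body. Male and female libraries did not overlap in either tissue.

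GD25622, on 2R, was at 1.09 and 1.59 TPM in female oenocytes, 8.13 and 10.6 TPM in male oenocytes, 7.19 and 3.49 TPM in female fat body and 451 and 386 TPM in male fat body. The ratio was 4.43 in oenocytes and 66.2 in fat body, the highest of the 8 there. No aligned read fell on it in any of the 4 oenocyte libraries, so its oenocyte ratio rests on the estimated counts, which were 4 and 8 for females and 16 and 42 for males. The fat body libraries had 2 and 0 aligned reads in females and 67 and 92 in males. Over all libraries it had 161 aligned reads and 3159 estimated counts, a factor of 19.6 where all features together gave 6.55.

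GD22237, on 2L, was at 3.19 and 3.07 TPM in female oenocytes, 15.3 and 15.7 TPM in male oenocytes, 5.75 and 6.74 TPM in female fat body and 227 and 274 TPM in male fat body. Its ratios were 3.99 and 34.7. The order of its 4 groups was the same as for GD24689, with female oenocytes lowest and male fat body far above the rest.

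GD16941, on the X, was the most abundant member in male fat body. Its libraries were at 48.0 and 49.1 TPM in female oenocytes, 181 and 174 TPM in male oenocytes, 65.3 and 68.0 TPM in female fat body and 1996 and 1913 TPM in male fat body, with ratios of 3.60 and 28.9. By mean TPM it ranked 117 among all genes in male fat body and 918 in female fat body. Its aligned reads, scaled to library totals, gave a smaller oenocyte ratio of 1.79 and a fat body ratio of 32.2.

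The other 3 members with non-overlapping libraries in both tissues had smaller ratios. GD13387, on 3L, was at 69.1 and 62.1 TPM in female oenocytes, 197 and 195 TPM in male oenocytes, 184 and 180 TPM in female fat body and 1429 and 1379 TPM in male fat body. It ranked 151 in male fat body, and its ratios were 2.95 and 7.68. Its level in male oenocytes lay just above its level in female fat body.

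GD18107, on 3R, was at 10.8 and 7.74 TPM in female oenocytes, 27.5 and 29.4 TPM in male oenocytes, 18.2 and 17.3 TPM in female fat body and 172 and 169 TPM in male fat body. Its ratios were 2.87 and 9.13. In aligned reads the fat body ratio was 3.32, and the 2 female fat body libraries lay far apart, at 11.1 and 53.9 aligned CPM.

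GD15886, on the X, was at 39.0 and 42.2 TPM in female oenocytes, 107 and 106 TPM in male oenocytes, 21.8 and 24.2 TPM in female fat body and 73.4 and 78.9 TPM in male fat body. Its ratios of 2.59 and 3.21 were the smallest of the 8 in both tissues. Of the 7 members with non-overlapping libraries it was the only one with more TPM in oenocytes than in fat body, in both sexes.

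GD28014, on 3L, rested on few reads. It was at 0 TPM in both female oenocyte libraries, 1.56 and 8.02 TPM in male oenocytes, 0.48 and 0 TPM in female fat body and 0 and 6.76 TPM in male fat body. The sexes overlapped in fat body, and replicate 2 of each male group held most of the signal. The readouts disagreed on which libraries hold it, since the estimated counts were 0 in both male oenocyte libraries, 3.77 in replicate 1 of female oenocytes and 11.8 in replicate 2 of male fat body. Counts of 0 cannot give a TPM above 0, so these counts are not the ones behind its TPM. They came to 15.6 over all 8 libraries, against 199 aligned reads. Of the aligned reads, 83 and 70 lay in replicate 2 of male oenocytes and of male fat body. Its ratios were 5.79 and 3.53, and without replicate 2 of male fat body the rule kept the other 7 members and not this gene.

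**Figure D1:**
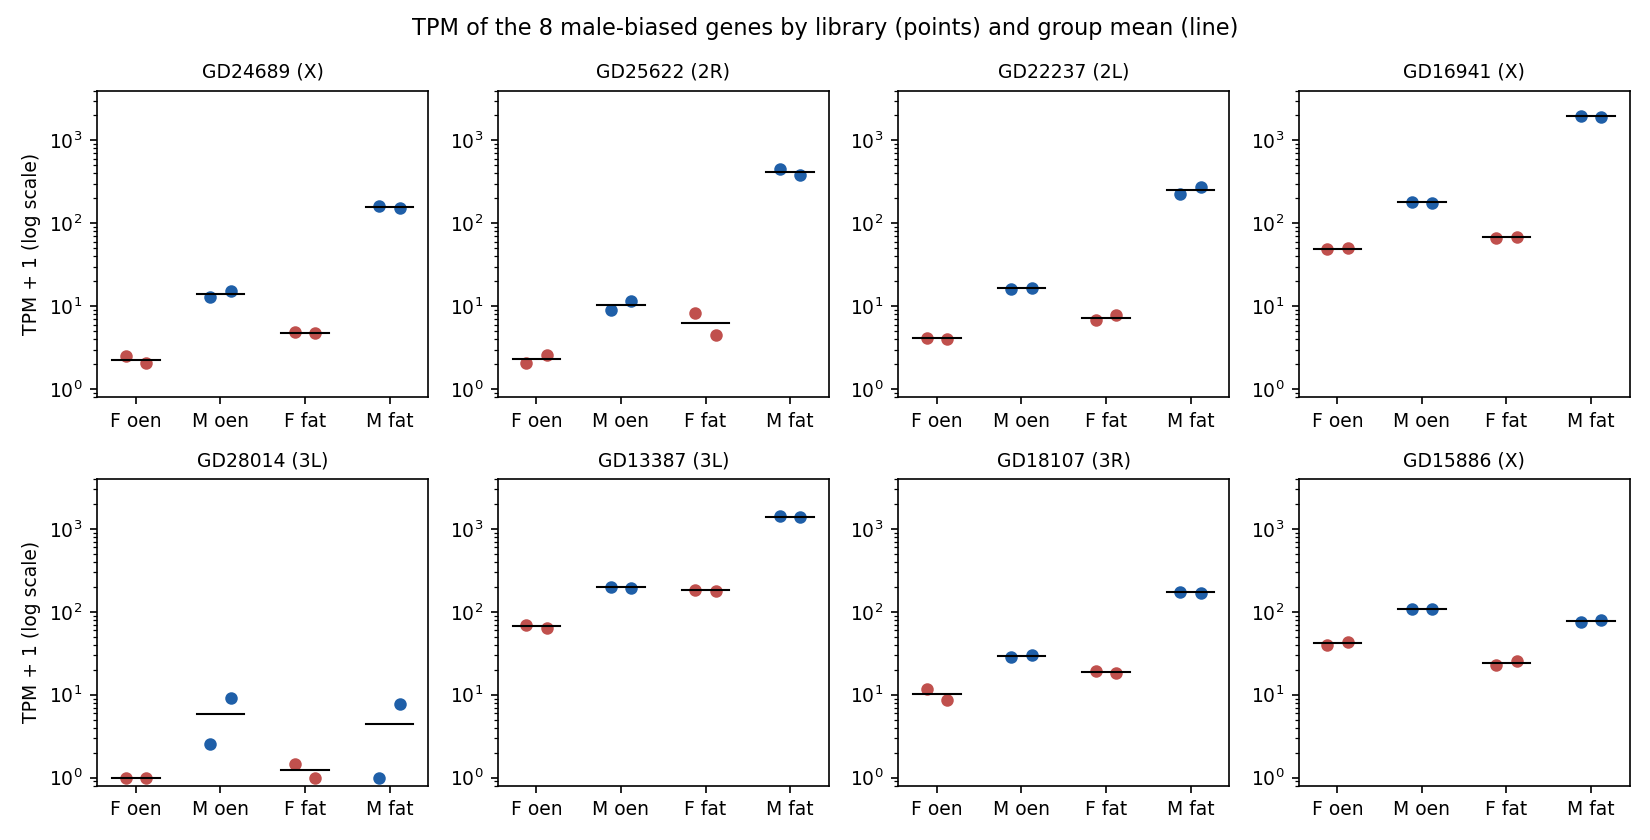
TPM + 1 on a log scale for the 8 members, with 1 point per library, females in red and males in blue, and a line at the mean of the 2 libraries (oen, oenocytes; fat, fat body). In 6 panels the male fat body points stand highest, GD15886 is highest in male oenocytes, and the male points of GD28014 are spread, with 1 fat body library at 0 TPM.

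These ratios chose the members, so they are a description and carry no test. The background differed between the tissues. Among 7278 genes with a mean TPM of at least 1, the median male over female ratio was 0.00 on the log2 scale in oenocytes and 0.63 in fat body, the latter being 1.55-fold. The threshold of the rule was passed by 0.646% of these genes in oenocytes, by 3.49% in fat body and by 0.124% in both. All male libraries lay above all female ones in oenocytes for 8 of 8 members and 33.5% of the genes, in fat body for 7 of 8 members and 81.4% of the genes, and in both tissues for 7 of 8 members and 28.9% of the genes. The exception was GD28014. In aligned CPM, 7 of 8 members and 9.76% of the genes did so in both tissues, the exception being GD25622. The members' median ratio was 1.92 on the log2 scale in oenocytes and 4.02 in fat body.

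The make-up of the fat body libraries also differed between the sexes. In fat body the top 10 transcripts made up 44.7% and 44.9% of a female library's estimated counts and 18.1% and 17.6% of a male library's. TMM factors, which scale libraries to a common centre, were 1.41 and 1.38 in male fat body and 0.870 to 0.911 elsewhere. With TPM scaled by them, 6 of the 8 members still passed both thresholds, while the fat body ratio was 2.73 for GD28014 and 2.06 for GD15886. Divided by the median of all genes, the ratio was larger in fat body than in oenocytes for 6 of 8 members and for 51.3% of the genes, the exceptions again being GD28014 and GD15886. These scaled fat body ratios ran from 2.08 to 42.7.

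**Figure D2:**
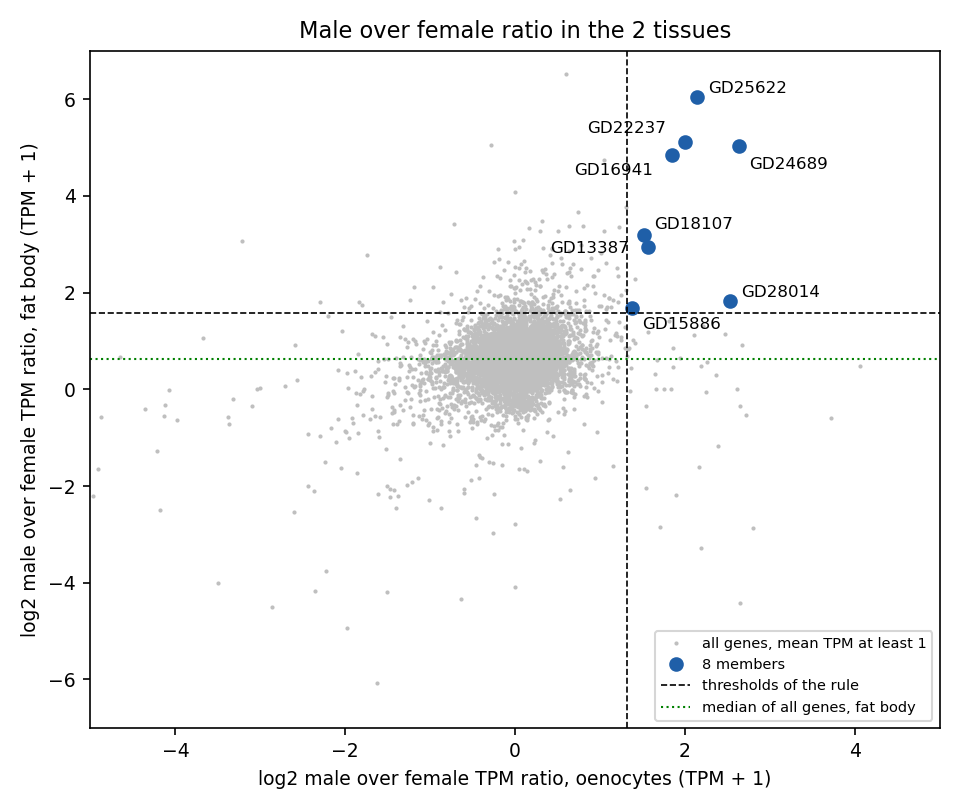
Log2 male over female ratio of TPM + 1 in oenocytes (x axis) and fat body (y axis) for 7278 genes with a mean TPM of at least 1 (grey) and the 8 members (blue). Dashed lines mark the thresholds and the dotted line the fat body median of 0.63, and 12 genes lie outside the axes. The members lie between 3.21 and 66.2 in the fat body ratio, and GD15886 lies near the corner of both thresholds.

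The edge of the group is close. Just inside the oenocyte threshold were GD15886, GD18107 and GD13387, and just inside the fat body threshold GD15886 and GD28014, with GD13387 next at 7.68. Just outside lay GD28333, with ratios of 2.48 in oenocytes and 4.12 in fat body, and GD25544, with 2.47 and 13.7, and an X-linked gene followed with 2.37 and 3.85. On the fat body side, a gene on 3R had 3.53 and 2.64, and HDAC6, a deacetylase gene on the X that the rule leaves out by name, had 4.63 and 2.47. GD15886 no longer passed without replicate 1 of female oenocytes, and GD18107 no longer passed without replicate 2. The members were spread over the chromosomes, with 3 on the X, 2 on 3L and 1 each on 2L, 2R and 3R. The X held 16.5% of the genes with a mean TPM of at least 1.

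Lists of markers of other tissues were read beside these values. Of 20 listed accessory gland genes 14 were in the table, and 9 to 12 of them were at 0 in each library. Acp26Aa, Acp36DE and Acp70A, which encode defining seminal proteins, were at 0 in all 8 libraries. In oenocytes the summed TPM of the list was 70.4 and 72.9 for females and 42.5 and 44.3 for males, and in fat body 447 and 481 for females and 689 and 712 for males, nearly all of it from Acp54A1.

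Of 63 listed testis genes 10 were found. Their sum was 133 and 144 TPM in female oenocytes, 158 and 154 TPM in male oenocytes, 90.5 and 94.7 TPM in female fat body and 166 and 156 TPM in male fat body, nearly all of it from janA and fzo, while aly was at 0 in all 8 libraries. The sperm genes Mst84Da, Mst98Cb and dj and the testis gene ocn stood at 0 and 4.90, 1.13 and 0.93, 2.12 and 0.55, and 0.24 and 1.40 TPM in the 2 male fat body libraries, and at 0.23 TPM or less in the other 6. In contrast, r-cup was at 0 in both male and at 0.14 and 0.18 TPM in the female fat body libraries, and bam was at 0 in all of these. The highest values of janB, 0.49 and 1.94 TPM, included female oenocytes, against 0.30 and 0.87 TPM in male fat body. Both sums were higher in male than in female fat body, where the median ratio of all genes was itself 1.55-fold. The ratios of TPM + 1 in fat body, male over female, were 1.66 for janA and 1.67 for fzo. Acp54A1 lay just below the median. The 1 hemocyte marker of 10 found, crq, had a ratio of 2.37, at 103 and 86.7 TPM in males against 41.3 and 37.5 TPM in females. Of 17 listed muscle genes 3 were found, with ratios from 0.85 to 1.20. Of 8 listed genes of the ejaculatory duct and bulb 2 were found. Est-6, a carboxylesterase gene known from the duct, was at 320 and 287 TPM in male and 125 and 122 TPM in female fat body. The other, Gld, was at 0 and 0.18 TPM in male and 0.03 and 0.11 TPM in female fat body. The part of other tissues in the members' fat body ratios was not tested. Of the 8 listed dosage compensation genes and 19 listed takeout family genes, none was matched.

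The members were also compared between the tissues within each sex. The rule did not use this contrast, but it used the levels of the same libraries, so the tests describe the members and add nothing to their choice. Changes are log2 fold changes of oenocytes over fat body with their standard error (SE), tested with edgeR's quasi-likelihood test on estimated counts per transcript and Benjamini-Hochberg adjustment over 14279 transcripts. The CPM of these estimated counts are scaled with TMM factors. GD13387 matched no single transcript and was tested on aligned reads instead. GD28014 was kept among the tested members, though its estimated counts are not those behind its TPM.

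In males, 6 of 7 tested members passed an adjusted p of 0.05, 5 of them lower and 1 higher in oenocytes. Over all transcripts 21.4% passed, 11.3% lower and 10.2% higher. GD25622 was at 1.58 CPM in male oenocytes and at 60.4 and 57.7 CPM in male fat body, a change of -5.22 (SE 0.47, adjusted p 0.00162 in edgeR's test). GD22237 changed by -3.68 (SE 0.26, adjusted p 0.000705 in edgeR's test), from 135 and 176 CPM in fat body to 12.2 CPM in oenocytes. The other members that were lower were GD16941 (-3.27), GD24689 (-3.18) and GD18107 (-2.07), with SE of 0.16 to 0.23 and adjusted p from 0.000202 to 0.00181 in edgeR's test. The oenocyte sample lay below both fat body libraries for each of these 5. They were picked as called lower, so this order adds no support, and its share over all transcripts was not counted.

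GD15886 rose in male oenocytes, at 118 CPM against 62.3 and 72.7 CPM in male fat body, a change of 0.80 (SE 0.16, adjusted p 0.0274 in edgeR's test). This call was lost in 5 of 17 alternatives, without either female oenocyte library, without either male fat body library and with aligned reads, where the highest adjusted p was 0.424 by edgeR. The call of GD18107 was lost with aligned reads (adjusted p 0.0845 in edgeR's test, change -2.69).

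In females, 5 of 7 tested members passed, all 5 lower in oenocytes, where 26% of all transcripts passed and 13.1% were lower. The changes were smaller in size than in males for each of the 5, but that difference was not tested. It largely restates their male over female ratios, larger in fat body than in oenocytes, which the rule used. GD25622 was at 0.176 and 0.269 CPM in female oenocytes and 1.26 and 0.705 CPM in female fat body, a change of -2.07 (SE 0.38, adjusted p 0.0161 in edgeR's test). GD24689 changed by -1.78 (SE 0.18), GD18107 by -1.32 (SE 0.15) and GD22237 by -1.29 (SE 0.19), with adjusted p from 0.00227 to 0.00842 in edgeR's test. GD16941 was at 8.11 and 8.66 CPM in oenocytes and 11.9 and 14.3 CPM in fat body, a change of -0.65 (SE 0.11, adjusted p 0.0139 in edgeR's test).

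Several of these female calls depended on single libraries or on the counts used. That of GD16941 was lost without either female oenocyte library (adjusted p 0.0616 and 0.0554 in edgeR's test), and with aligned reads its change was 0.04 (adjusted p 0.963). That of GD25622 was lost without either female oenocyte library (0.0679 and 0.0517) and with aligned reads (0.220), that of GD22237 without replicate 2 of female oenocytes (0.0571) and that of GD24689 with aligned reads (0.0868), all as adjusted p of edgeR. GD15886 had a change of 0.50 in females (SE 0.14, adjusted p 0.0609 in edgeR's test). GD28014, whose estimated counts are not those behind its TPM, passed in neither sex, and its direction turned with the counts used. Its fitted change was -5.10 in males (SE 4.57) and 4.17 in females (SE 3.95), with 0.53 and 0.20 in aligned reads and 1.06 and -0.28 with limma on log2(TPM + 1).

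In aligned reads per gene, GD13387 was at 64.0 and 61.6 aligned CPM in female oenocytes, 183 and 190 CPM in male oenocytes, 186 and 175 CPM in female fat body and 1029 and 1087 CPM in male fat body. It was lower in oenocytes by -2.45 in males (SE 0.31, adjusted p 0.00173) and by -1.72 in females (SE 0.23, adjusted p 0.00163) in edgeR's test, where 12.4% and 15.4% of genes were lower.

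**Figure D3:**
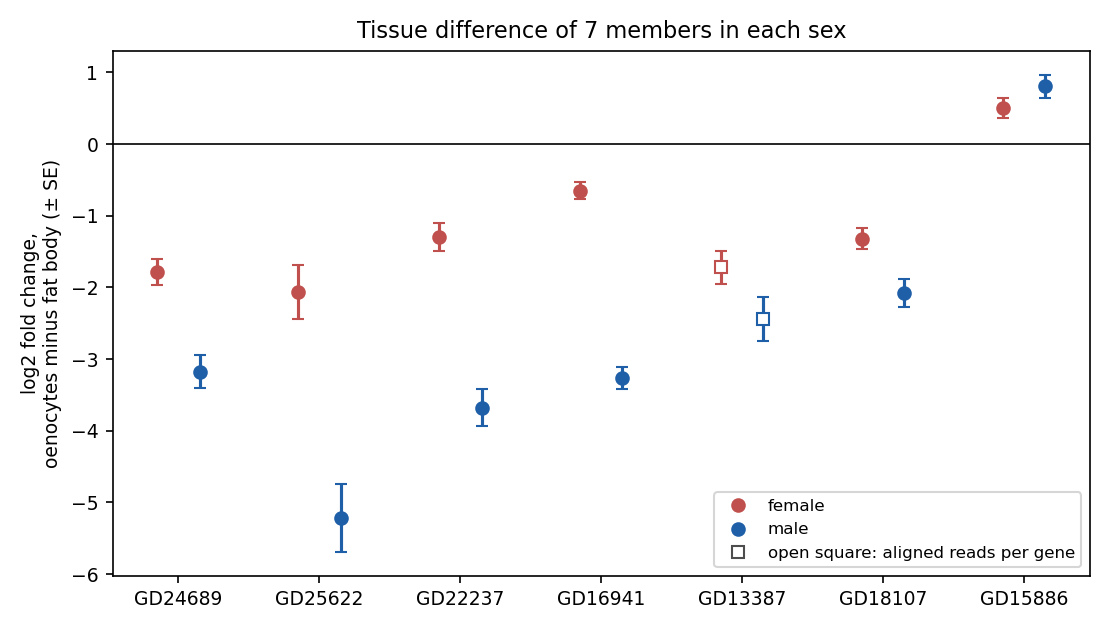
Log2 fold change of oenocytes over fat body, with its SE as bars, for 7 members in females (red) and males (blue); circles are estimated counts per transcript and open squares, for GD13387, aligned reads per gene. The plotted values lie below 0 for 6 members and above 0 for GD15886, and the lowest is -5.22 for GD25622 in males.

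Because the hybrids carry a chromosome set of each species, reads over species differences tell which allele made the RNA. The reference class is read here as D. simulans and the alternative class as D. sechellia, since across 468 to 826 genes per library the alternative percentage correlated with the percentage of the D. sechellia transcript copy (Pearson's r 0.707 to 0.863 across genes, which are not independent replicates). Off the X, 62.5% to 65.0% of allele reads were alternative in each library, so the background itself leans to that class. Males carry a single X, yet 17.6% to 24.6% of their X reads were in the alternative class, against 54.0% to 58.1% in females. Most male X reads were thus of the reference class, and X genes were tested in females only. Intervals are exact binomial (Clopper-Pearson) 95% intervals that cover counting error only. Genes with at least 20 allele reads in a group were tested for imbalance with edgeR's quasi-likelihood test.

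Of the members with enough reads, 1 of 4 was called in female oenocytes, towards the reference allele, where 27% of all tested genes were called, 25.1% towards the alternative and 1.88% towards the reference allele. In male oenocytes 1 of 4 was called, towards the alternative allele, as were 15% of all genes, 13.5% and 1.51% in the 2 directions. For fat body of females it was 3 of 5 members, 2 of them towards the alternative allele, against 26.2% of genes, 23.9% and 2.26% in the 2 directions. For fat body of males it was 2 of 5, 1 each way, against 32.2%, 29.7% and 2.42%. With each library centred on its own median ratio off the X, the genes called towards the alternative and the reference allele were 7.19% and 7.62% in female oenocytes, 4.28% and 4.15% for oenocytes of males, 6.95% and 7.66% for fat body of females and 9.02% and 8.44% for fat body of males. The members called were then 1, 1, 2 and 3 in that order.

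In females, which carry the X of both species, every allele read of GD16941 was of the reference allele. None of 23 and 19 allele reads in female oenocytes and none of 11 and 13 in female fat body was alternative. Together these are 0 of 66 reads, for which the exact interval reaches 5.44% (a floor of 3 reads would be 4.55%). The imbalance was called in female oenocytes (adjusted p 4.21e-07) and in female fat body (adjusted p 3.48e-05) by edgeR's test, though in fat body DESeq2 gave an adjusted p of 0.0659.

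In males, 1 of 763 allele reads of GD16941 was alternative. The transcript copies gave the same direction in females, with 851 estimated counts for the D. simulans copy and 6.80 for the D. sechellia copy. Of 1049 X genes with at least 20 allele reads over the female libraries, 4 had at most 5% alternative reads, which is 0.381%, and GD16941 was the 1 gene with none.

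GD24689, also on the X, had 3 allele reads in females, too few to test, and all were reference. In males 1 of 198 allele reads was alternative, below the 17.6% to 24.6% of X reads as a whole. Its copies held 188 estimated counts for D. simulans and 3.93 for D. sechellia in females.

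GD15886, the third X-linked member, gave reads in both allele classes, also in males, which carry a single X. In males 114 of 407 allele reads were alternative, 28.0%, and the transcript copies held 38.6% D. sechellia. The female shares may thus include reads set in the wrong class, which was not tested. In female oenocytes 16 of 35 and 17 of 44 allele reads were alternative, 41.8% together (interval 30.8% to 53.4%), and in female fat body 7 of 12 and 15 of 28, 55.0% together (38.5% to 70.7%). Neither group was called, at log2 ratios of -0.46 and 0.30 (adjusted p 0.508 and 0.741 in edgeR's test). The transcript copies leaned to D. sechellia in females, with 67.7% in oenocytes and 75.4% in fat body, and were called there with adjusted p of 0.0112 and 0.00398 in edgeR's test. Their log2 ratios of 1.08 and 1.59 stood beside medians of 1.25 and 1.24 over all transcripts tested, of which 24.0% and 25.1% were called towards D. sechellia. The sign of the ratio in female oenocytes thus differed between the allele reads and the copies.

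Among the autosomal members, GD18107 leaned furthest to the alternative allele. Alternative reads were 9 of 9 and 8 of 13 in female oenocytes, 19 of 20 and 30 of 32 in male oenocytes, 17 of 19 and 129 of 135 in female fat body and 75 of 90 and 184 of 226 in male fat body. The shares were 77.3%, 94.2%, 94.8% and 82.0%, all above 50% and above the background of 62.5% to 65.0%. In female oenocytes, though, GD18107 had an interval of 54.6% to 92.2%, which holds that background, with 61.5% in replicate 2. Its log2 ratio of alternative over reference was 3.95 in male oenocytes (SE 0.85, adjusted p 0.000586), 4.05 in female fat body (SE 0.61, adjusted p 4.82e-07) and 2.21 in male fat body (SE 0.43, adjusted p 5.14e-05) in edgeR's test. In female oenocytes it was 1.78 (SE 0.78, adjusted p 0.0833), and the transcript copies gave 99.1% D. sechellia there. With those copies the male oenocyte call was lost (adjusted p 0.0731 in edgeR's test).

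GD25622 leaned the other way in male fat body, the only group with enough reads. Alternative reads were 2 of 63 and 5 of 86, or 4.70% (interval 1.91% to 9.44%), a log2 ratio of -4.34 (SE 0.78, adjusted p 1.27e-05 in edgeR's test). Of all genes tested in that group, 2.42% were called towards the reference allele. The transcript copies of GD25622 held equal estimated counts in every group and measured no allele, and the same held for GD22237.

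GD13387 gave the most allele reads, with alternative shares in oenocytes of 54.1% for females and 52.2% for males, and in fat body of 61.0% for females and 53.4% for males, all below the autosomal background of 62.5% to 65.0%. In female fat body 207 of 337 and 238 of 393 reads were alternative, and the log2 ratio of 0.64 passed (SE 0.24, adjusted p 0.0356 in edgeR's test). Once each library was centred on its own median ratio the value was -0.10. In male fat body the centred ratio was -0.61 and was called towards the reference allele (adjusted p 0.0395 in edgeR's test), against 0.19 uncentred (adjusted p 0.539). The female fat body call was also lost without replicate 1 (adjusted p 0.294) or replicate 2 (0.259) of female fat body in edgeR's test.

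The other 2 autosomal members passed nowhere. GD22237 had 58.9% alternative reads of 662 in male fat body (log2 ratio 0.72, adjusted p 0.114), 52.3% of 44 in male oenocytes and 76.2% of 21 in female fat body (1.64, adjusted p 0.0969 in edgeR's test). GD28014 had 67.5% of 83 in male oenocytes and 74.6% of 63 in male fat body (adjusted p 0.466 and 0.0913 in edgeR's test), most of them from replicate 2.

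**Figure D4:**
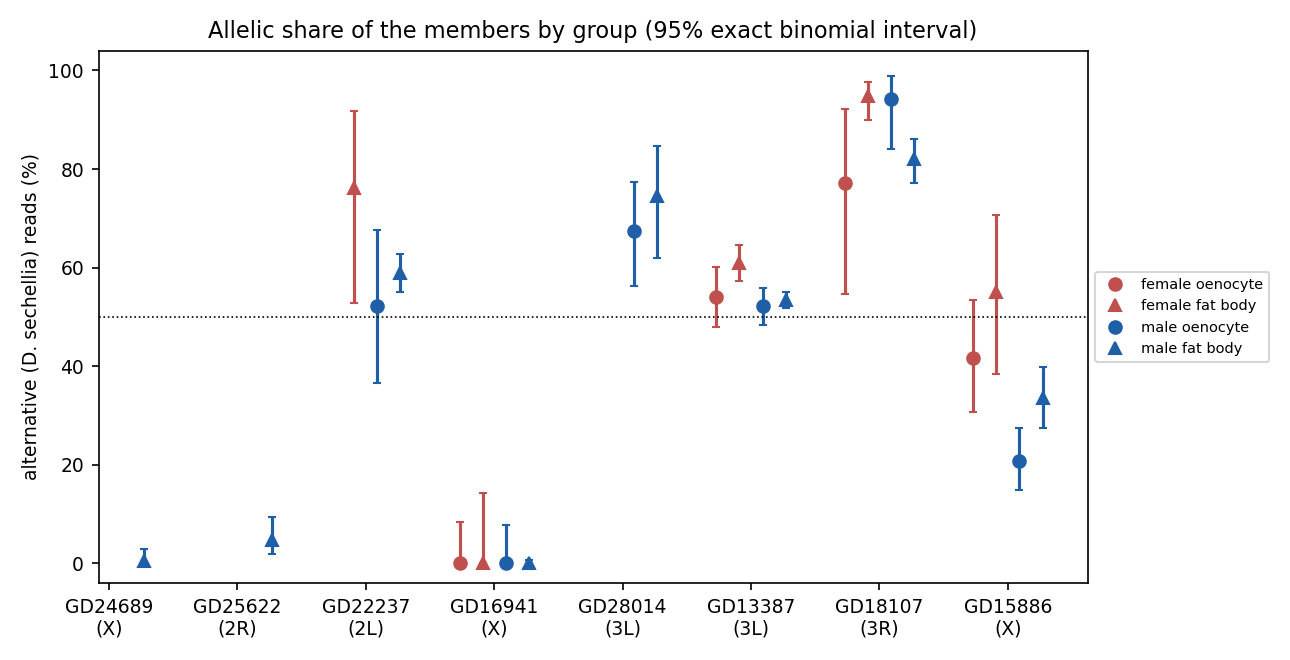
Alternative (D. sechellia) reads as a percentage of allele reads for each member and each group with at least 20 such reads, with 95% exact binomial intervals; circles are oenocytes, triangles fat body, red females and blue males, and the dotted line is 50%. GD16941 lies at or near 0% in all 4 groups, GD18107 between 77.3% and 94.8%, and GD13387 between 52.2% and 61.0%.

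The alleles were last compared between the sexes, which asks whether both alleles share the male excess. Of the autosomal members with at least 20 allele reads in both sexes, 0 of 2 were called in oenocytes, where 0.0832% of genes were, and 0 of 3 in fat body, where 0.179% were, by edgeR's quasi-likelihood test. The counts over all genes were 3 and 6, beside 121 and 115 at an unadjusted p under 0.05, and DESeq2 called 2 and 4 genes and none of the members. The female minus male difference of the log2 ratio was 1.84 for GD18107 in fat body (SE 0.77, unadjusted p 0.0209, adjusted p 1 in edgeR's test) and -2.18 in oenocytes (SE 1.31, adjusted p 0.999). For GD13387 it was 0.45 in fat body (SE 0.32) and 0.08 in oenocytes (SE 0.41), and for GD22237 0.91 in fat body (SE 0.82). A p that misses the threshold does not show that the alleles shared the difference alike.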

How the data were processed

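The members and all lists were chosen with earlier results of these data known. The authors deposited estimated counts and TPM per transcript copy of each species, TPM per transcript and per gene, and, per the file headers, whole-number read counts per gene in 4 allele classes with a log2 allele value. The submitters' processing notes name kallisto 0.44.0 and STAR 2.5.1b; index, genome build, variant filter and strand are not given in the sources used here. The deposited log2 values were not used in tests.

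A transcript took a gene's name where the gene's TPM equalled its own within 0.005 in all 8 libraries (7776 of 24115); GD18107 was matched as a pair of transcripts after its values were seen, and its main transcript was tested. For tissue differences, the copies were summed and rounded, and edgeR 4.0.16 (R 4.3.3; TMM, filterByExpr, glmQLFit, glmQLFTest) was fitted to 7 samples with 1 term per group. Allele tests used reference and alternative read counts as 2 columns per sample, without TMM. A call means a p under 0.05 after Benjamini-Hochberg adjustment over all features; p-values were computed here, none were deposited. SE is the absolute log2 value over the root of edgeR's F. On simulated data of 12955 transcripts, 77% of 2-fold and 100% of 8-fold tissue changes in males were recovered, with 9 false calls. The simulation gave every transcript the same spread and, apart from the changed ones, equal levels in all groups. These figures are thus not the power or error rate of the data.

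All members are named, as the rule for named genes allows up to 20, with the genes just outside each threshold; the file holds 427 genes with another symbol. DESeq2 1.42.0, limma 3.58.1, other scalings, filters and single left-out libraries were alternatives. Reads shared with near-identical copies or overlapping genes could not be checked, and no gene sequence or coordinate was used here.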

Additional observations from a re-analysis of the deposited data

How the results depend on the processing

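Depth limits GD25622, GD28014 and GD24689, whose oenocyte or allele counts are a few reads. No alternative reversed a called tissue difference in males, and 487 of the values of single members recomputed under alternatives kept their direction and side of the threshold, while 19 lost and 7 gained a call. The members called for a tissue difference in females numbered 3 with aligned reads and 2 to 5 with single libraries left out, and in males 5 to 6 with single libraries left out. For allelic imbalance in female oenocytes the count was 0 of 2 tested with at least 50 reads and 4 of 4 with the transcript copies. Without single libraries it was 0 to 1. Where it was 0, GD16941, the member called in the main test, had too few reads to be tested. Its call held in all 13 alternatives that tested it. In female fat body the count was 1 of 5 with DESeq2 and 0 to 3 without single libraries, the 0 being of 1 tested member. DESeq2 called 18.3% of all genes there. With the transcript copies the count was 0 of 1 in male oenocytes and 1 of 1 in male fat body, where 23.4% and 39.9% of all transcripts were called. The rule kept 72 genes with a pseudocount of 0.1, 43 with thresholds of 2 and 2, 2 with 4 and 4, 19 with aligned reads (6 shared), and 7 to 14 without single libraries, 12 and 14 of them without replicate 1 or 2 of female oenocytes. The cause of the other moves was not tested.

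The tissue difference of GD28014 reversed to 0.53, 1.06 and 2.56 in males with aligned reads and with limma at pseudocounts of 1 and 0.1, and to -0.28 and -1.27 in females with limma. The other values that reversed were the female tissue difference of GD16941 with aligned reads (0.038) and, with libraries centred, the log2 allele ratio of GD13387 in female oenocytes (-0.56), male oenocytes (-0.53), female fat body (-0.10) and male fat body (-0.61), of GD22237 in male oenocytes (-0.52) and male fat body (-0.091), and of GD15886 in female fat body (-0.44). The sex difference of GD13387 in oenocytes became -0.027. Without replicate 1 of female oenocytes, the ratio of GD13387 there was -0.051 and its sex difference -0.18, and without replicate 2 they were 0.44 and 0.31. With transcript copies, the ratio of GD15886 in female oenocytes was 1.08 and the sex difference of GD18107 in oenocytes 3.37.

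No pairing by replicate number was seen, as the correlation of same-numbered deviations between groups was -0.02 to 0.12. With 2 libraries per group, and the male oenocyte pair close to sampling noise, this cannot exclude a pairing. With all 8 libraries and a replicate block, 6 of 6 tested members were called in males and 6 of 6 in females, against 6 and 5. Over all transcripts 32.0% and 32.2% were called. The added call was GD15886 in females (0.49, adjusted p 0.0135 in edgeR's test). Allele calls with the block numbered 1, 1, 3 and 2 in female oenocytes, male oenocytes, female fat body and male fat body. Over all genes 27.0%, 24.6%, 27.0% and 29.1% were called, in the same order.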
